A study of Mus musculus with 54 samples.

Results

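The transcriptomes of +EMD and wildtype myogenic progenitors were compared after 48 h of differentiation (day 2). The comparison is 1 of the 27 deposited tables, and all 17627 genes listed in it were used, of 18943 genes found in the 6 tables read here. It rests on 6 of the 54 samples of the study, 3 labelled replicates in each group.

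H2K cells are conditionally immortal mouse muscle precursors that proliferate with γ-interferon and form myotubes when serum is withdrawn. Wildtype H2K progenitors and H2K progenitors without emerin (EMD-/y) were sequenced beside EMD-/y lines given emerin by lentivirus. The +EMD group, labelled EMD by the submitters, is the EMD-/y line transduced with wildtype emerin and selected with puromycin, so these cells still carry the Emd deletion. Wildtype progenitors carry the intact gene, and no transduction is stated for them. Both groups were grown in the same medium, with 20 units/ml γ-interferon, 20% serum and 10% CO2 while proliferating, and with 5% horse serum and 5% CO2 in differentiation. For differentiation the temperature was also raised, and no γ-interferon is listed for that medium. Wildtype cells were plated at 232000 cells per well, and vector control and emerin mutant lines were plated at 297000. The +EMD cells were expanded in medium with puromycin, while the plating density, and whether puromycin was kept in differentiation, are not stated for +EMD by name. Each genotype is 1 line, so line and genotype cannot be told apart here, and in RNA from a whole well fewer cells of a type and less RNA per cell cannot be told apart. The methods give 3 technical replicates for each of 2 biological replicates, and the labels do not say which the 3 samples of a group are.

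Emerin is a protein of the inner nuclear membrane that binds lamins and chromatin regulators, and its loss causes Emery-Dreifuss muscular dystrophy. Differentiating myoblasts leave the cell cycle, switch on myogenin, fuse, and then build sarcomeres, the repeating contractile units, and the membrane system that couples excitation to calcium release. The first sarcomeres of cultured myotubes use embryonic and cardiac isoforms that adult fibres later replace.

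Each gene had 1 level per group, a fitted number of normalised reads, and the ratio of +EMD to wildtype was taken as log2((level in +EMD + 1)/(level in wildtype + 1)). A gene is called higher or lower below where this log2 ratio was at least 1 in size and the higher of its levels was at least 10. The table gives no value per library, so no spread between replicates and no test could be computed, and the counts below describe sizes only. Size factors scale the libraries to each other, and those of the 6 libraries, read from the lowest values, lay between 0.970 and 1.026. Multiplied by the summed mean level of this comparison, they give about 18003000 to 19049000 reads on genes per library. That depth is rough, since the same wildtype libraries came out at 17200000 to 18022000 in the comparison with 24 h. At a level of 10 in both groups the counting error alone gives a 95% interval of ±0.73 on the log2 ratio, and at a level of 100 it gives ±0.23. These intervals leave out all differences between cultures.

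Of the 13359 genes with a level of at least 10 in either group, 1427 were higher in +EMD progenitors, which is 10.7%, and 1026 were lower, which is 7.68%. In either direction 18.4% passed 2-fold. For most genes the levels were close, since 65.6% lay within 1.5-fold and the median log2 ratio was -0.0003. The tails were long. More than 4-fold, 481 genes were higher and 405 lower, and more than 16-fold, 70 were higher and 115 lower. Near the threshold, 126 genes were between 2.0 and 2.1-fold higher and 145 between 1.9 and 2.0-fold higher, against 95 and 99 in the lower direction. Of the 825 predicted genes with a level of at least 10, which carry no symbol, 137 were higher and 165 lower.

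**Figure D1:**
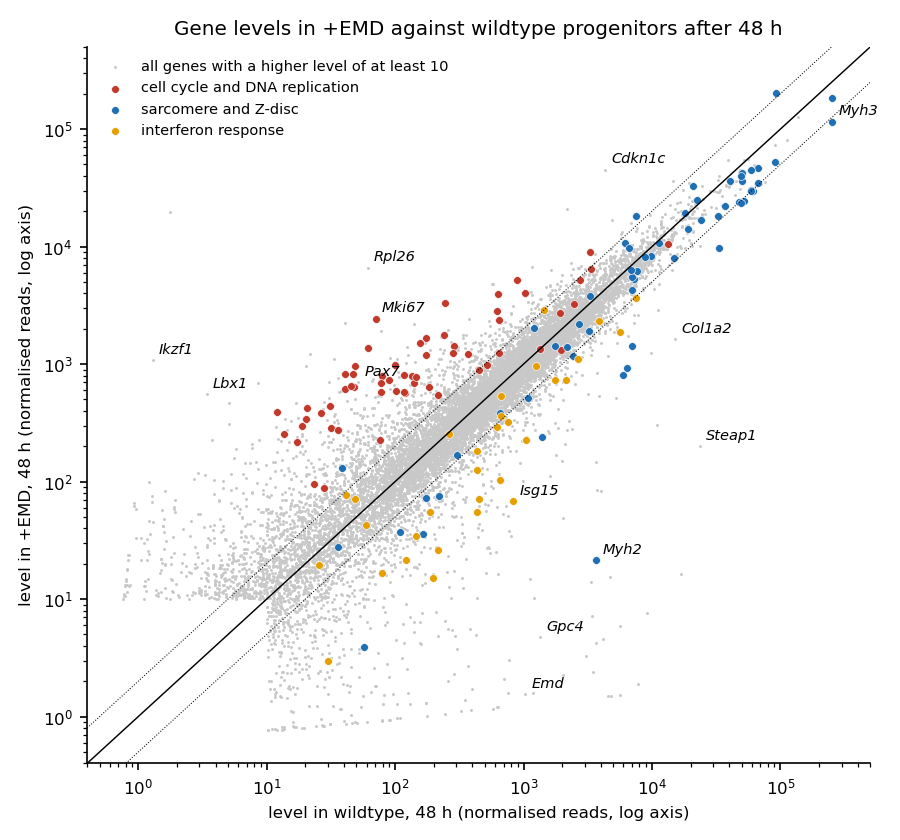
Level of each gene in wildtype (x axis) and +EMD progenitors (y axis) after 48 h, in normalised reads on log axes, with the diagonal as a solid line and 2-fold as dotted lines. Genes of cell cycle and DNA replication lie above the diagonal from wildtype levels of about 10 to 1000, interferon response genes lie mostly below it, and Emd, Gpc4, Myh2 and Steap1 stand among the genes far below.

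Emd itself was checked first. Its level was 1032 in wildtype and 1.55 in +EMD progenitors, beside 987 in wildtype and 2.35 in EMD-/y progenitors in the table that compares those lines. A group with few or no reads has a fitted level near 1 in these tables, since the lowest level beside a level of at least 100 was 0.965, so a ratio against such a level depends on the fit. The row counts reads of the mouse gene. At 1.55 in +EMD it holds few or no reads, so a lentiviral transcript was hardly counted in it, if at all. The species and coding sequence of the transduced emerin are not given in the sources used here, so the row does not show whether that transcript is made. The genes next to Emd on chromosome X had similar levels in both lines, with Flna at 5139 in wildtype and 7483 in +EMD and Rpl10 at 1973 in wildtype and 2252 in +EMD. Dnase1l1, of the same neighbourhood, was lower at 100.3 against 243.

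Both groups expressed the genes that define skeletal muscle cells. Myod1 and Myog, the transcription factors of commitment, had levels of 20128 in wildtype and 22308 in +EMD for Myod1 and 48254 in wildtype and 45092 in +EMD for Myog. Cdh15, the cadherin of muscle precursors, had a level of 11770.5 in wildtype and 16631 in +EMD. Other muscle markers had lower levels in +EMD. Log2 ratios were -1.13 for Myh3, -0.46 for Acta1, -0.39 for Des and -0.19 for Chrna1.

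Markers of the other cell types that a muscle culture could hold were counted by list. Of all genes with a level of at least 10, 10.7% were higher and 7.68% lower, and these lists held few members at that level. Of 10 fibroblast and fibro-adipogenic markers 7 reached a level of 10, 1 of them higher and 2 lower, and their summed level was 6047 in wildtype and 3853 in +EMD progenitors. Pdgfra, a defining receptor of fibro-adipogenic cells, was at 28.3 in wildtype and 15.2 in +EMD. Of 8 cartilage and bone markers 5 reached a level of 10 and 2 were higher, with a summed level of 694 and 1636, most of it Sox9 at 268 in wildtype and 1069 in +EMD. Of 8 Schwann and neural markers 3 reached it and 2 were higher, with log2 ratios above 0 for all 3, and Tubb3, a neuronal tubulin, was at 106 in wildtype and 849.9 in +EMD. Of 8 smooth muscle and pericyte markers 5 did and 1 was higher, Myh11 at 5.45 in wildtype and 23.2 in +EMD, while several members of that list, such as Des and Acta2, are also made by immature myotubes. Adipocytes, endothelium and leukocytes had few markers at that level, with 3 of 8, 1 of 7 and 2 of 8, and their lists summed to at most 729 in wildtype and 378 in +EMD progenitors. The endothelial marker that reached it, Vwf, was higher at 17.6 in wildtype and 47.5 in +EMD. Pecam1 was at 1.9 in wildtype and 2.73 in +EMD, Ptprc, the leukocyte antigen CD45, at 0.355 in wildtype and 0.623 in +EMD, and Fabp4 of adipocytes at 0.151 in wildtype and 0.178 in +EMD, all below the level of 10. The part of other cell types in the differences below was not tested.

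Among the lists with 10 or more measured members, the genes of cell division had the largest median difference. Of 31 cell cycle and mitosis genes with a level of at least 10, 25 were higher in +EMD progenitors and 0 lower, with a median log2 ratio of 3.14, beside 10.7% of all genes higher. Mki67, the proliferation antigen Ki-67, had a level of 70.4 in wildtype and 2434 in +EMD progenitors, a log2 ratio of 5.09. Espl1, the separase that cuts cohesin at anaphase, was at 12.1 in wildtype and 389 in +EMD (log2 ratio 4.89). Ccna2, cyclin A2 of S phase and G2, was at 61.2 in wildtype and 1361 in +EMD (log2 ratio 4.45). The wildtype levels of these genes were low and the +EMD levels were not, so the ratios are large at moderate absolute levels.

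The same held for the spindle and checkpoint genes. Kif11, the kinesin that separates spindle poles, was at 40.8 in wildtype and 819 in +EMD, Bub1b, a checkpoint kinase, at 48.8 in wildtype and 959.8 in +EMD, and Birc5, survivin, at 20.8 in wildtype and 422 in +EMD. Top2a, the topoisomerase that untangles sister chromatids, had a level of 244 in wildtype and 3293 in +EMD (log2 ratio 3.75). The 6 members that did not pass 2-fold were all D-type cyclins or G1 kinases. Ccnd3, cyclin D3, which stays high in differentiating muscle, had a level of 13378 in wildtype and 10559.6 in +EMD (log2 ratio -0.34), and Ccnd2 was also below 0 at a log2 ratio of -0.57. Cdk4 (0.94), Ccnd1 (0.95), Cdk6 (0.92) and Cdk2 (0.42) had log2 ratios above 0.

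DNA replication genes shared the direction. Of 28 members 24 were higher and 0 lower, beside 10.7% and 7.68% of all genes, with a median log2 ratio of 2.35. E2f7, an atypical E2F that is itself an E2F target, was at 13.7 in wildtype and 254 in +EMD (log2 ratio 4.11). Tk1, thymidine kinase, was at 18.9 in wildtype and 296 in +EMD, Cdc6, which loads the replicative helicase, at 31.3 in wildtype and 439 in +EMD, and Mcm10 at 17.4 in wildtype and 218 in +EMD. All of the helicase subunits on the list, Mcm2 to Mcm7, were higher, from a log2 ratio of 1.86 for Mcm7 to 3.25 for Mcm5. Members under 2-fold were E2f8 (0.02), E2f2 (0.49), Rrm2 (0.93) and E2f1 (0.96). Rrm2, a ribonucleotide reductase subunit, already had a level of 2764 in wildtype progenitors.

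Sequence before the gene starts is shown for members of the cell cycle and interferon response lists, so that the shared letters can be seen beside the values. Matches were counted in the 250 bases before the start that the RefSeq promoter table lists in GRCm38.p6. Other RefSeq transcripts of Mki67 and Espl1 start earlier, so that 71 and 39 bases of these windows lie inside the gene record, and those bases are not printed. The stretches run 5′ to 3′ on the strand of the gene, and capitals mark matches on either strand to CCAAT (read as ATTGG on the other strand) and to TTTGAA or TTCGAA (read as TTCAAA on the other strand). Mki67 (chr7:135716451-135716629, minus strand) and Espl1 (chr15:102296043-102296253, plus strand) have the largest log2 ratios of the cell cycle list.
Mki67: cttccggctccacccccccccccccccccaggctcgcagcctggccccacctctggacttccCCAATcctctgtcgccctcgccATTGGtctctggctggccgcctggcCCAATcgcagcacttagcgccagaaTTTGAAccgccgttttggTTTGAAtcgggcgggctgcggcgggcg
Espl1: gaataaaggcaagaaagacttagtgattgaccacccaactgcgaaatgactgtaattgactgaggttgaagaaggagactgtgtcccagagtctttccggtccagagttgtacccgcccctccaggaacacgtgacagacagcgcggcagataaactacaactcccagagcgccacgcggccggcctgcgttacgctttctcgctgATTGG
The Mki67 window held 3 matches to CCAAT and 2 to TTTGAA, the nearest beginning 98 bases before the listed start. The Espl1 window held 1 of each, at 44 and 27 bases before the listed start, the latter in the part not printed. Of the 23 cell cycle genes with a listed start, 18 (78.3%) held CCAAT and 9 (39.1%) held TTTGAA or TTCGAA in this window, against 40.8% and 14.5% of the 10041 genes with a level of at least 10 and a listed start. Among 23 DNA replication genes the shares were 73.9% and 21.7%. A match describes letters and is not a binding site, and the motifs were chosen as known sequences of cell cycle promoters.

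Inhibitors of cyclin-dependent kinases and pocket proteins had no common direction, with 3 of 18 higher and 1 lower at a median log2 ratio of -0.05. These shares, 16.7% and 5.56%, lie beside 10.7% and 7.68% of all genes. Cdkn1c, which encodes the imprinted inhibitor p57, was higher, at 4328 in wildtype and 45135 in +EMD progenitors (log2 ratio 3.38). Cdkn1a, which encodes p21, was at 66554 in wildtype and 35809.6 in +EMD (log2 ratio -0.89), short of 2-fold. Cdkn2b, which encodes p15, was lower at 1136 in wildtype and 381 in +EMD. Rbl1, the pocket protein p107, was higher at 217 in wildtype and 579.8 in +EMD, as was Cdkn2c, p18, at 484 in wildtype and 1056 in +EMD. Rb1, Cdkn1b and Cdkn2a had log2 ratios of -0.24, 0.01 and -0.13.

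Of 18 myogenic regulators 6 were higher (33.3%) and 1 lower (5.56%), beside 10.7% and 7.68% of all genes. Their median log2 ratio was 0.30. Among the higher ones, Pax7, the transcription factor of satellite cells, was at 51.5 in wildtype and 698 in +EMD (log2 ratio 3.73). Myf5, of committed precursors, was at 129 in wildtype and 447 in +EMD (log2 ratio 1.78). The Id proteins bind the E-protein partners of MyoD, and Id2 was at 227 in wildtype and 1695 in +EMD, Id1 at 185 in wildtype and 782 in +EMD and Id3 at 229 in wildtype and 658 in +EMD. Tcf3, which encodes such an E-protein, was just past the threshold at a log2 ratio of 1.01.

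The commitment and fusion factors differed less. Myog had a log2 ratio of -0.10 and Myod1 of 0.15. Mymk, the fusogen myomaker, was at 48721 in wildtype and 31037 in +EMD (log2 ratio -0.65), and its partner Mymx, myomixer, was at 1080.0 in wildtype and 2005 in +EMD (log2 ratio 0.89). Mef2c, which activates sarcomere genes together with MyoD, was the lower one at 11119 in wildtype and 2908 in +EMD (log2 ratio -1.93). Its relatives Mef2d and Mef2a had log2 ratios of -0.86 and -0.07. None of the 12 fusion and adhesion genes passed 2-fold in either direction, where 18.4% of all genes did. Ncam1 (-0.69) and Itgb1 (0.07) were among them, and no test of that list was possible.

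**Figure D2:**
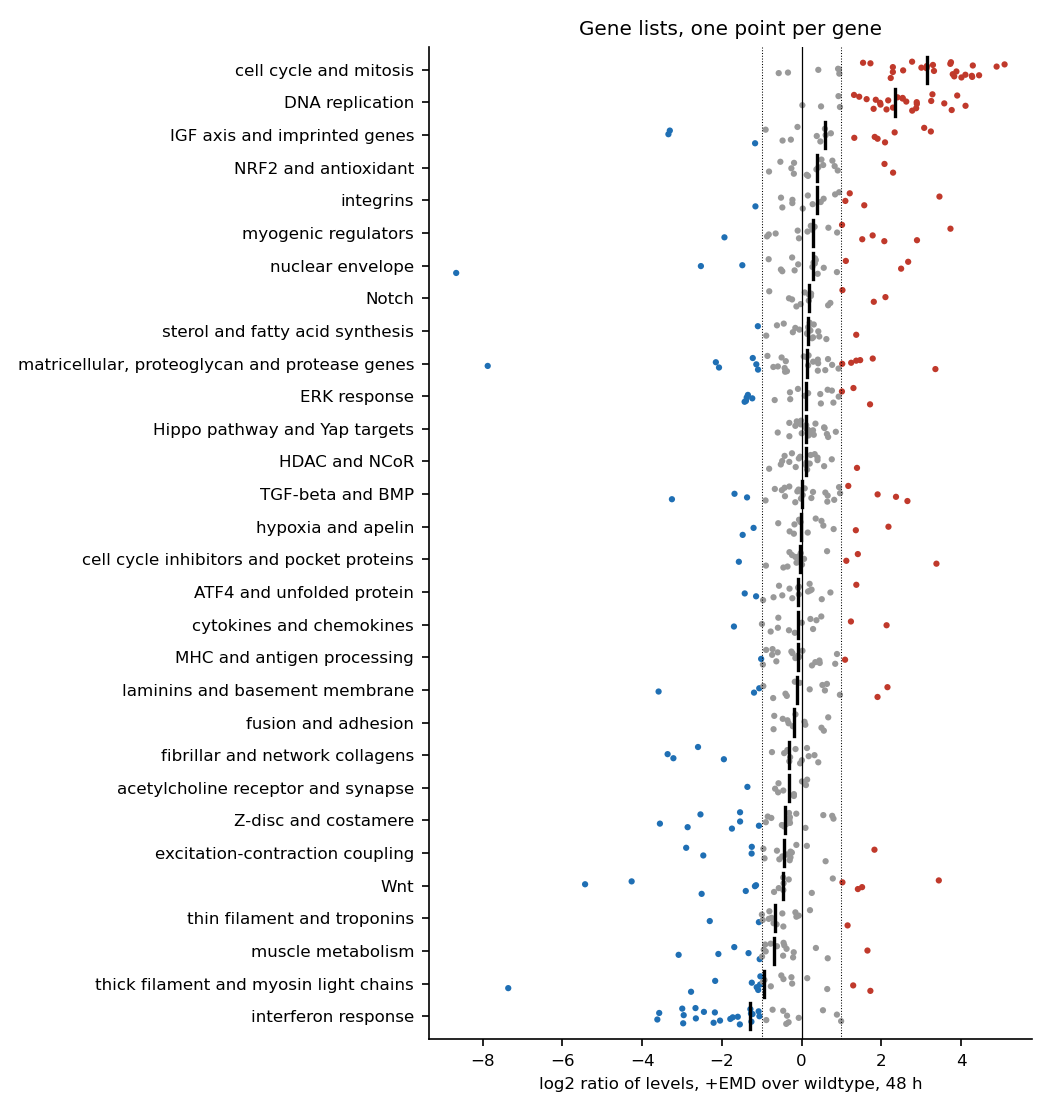
Log2 ratio of levels, +EMD over wildtype at 48 h, for each gene (point) of the lists with at least 10 members at a level of at least 10, with higher genes in red, lower genes in blue, others in grey, and the list median as a black bar. Of the cell cycle and DNA replication members 25 of 31 and 24 of 28 lie past 1 on the right, with medians of 3.14 and 2.35, interferon response members lie to the left with a median of -1.28, and most other lists are centred near 0.

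More sarcomere genes were lower than higher, and the exceptions included abundant cardiac and slow isoforms. In the thick filament and myosin light chain list 8 of 19 were lower and 2 higher, with a median log2 ratio of -0.93, beside 7.68% of all genes lower. Myh2, the adult fast IIa myosin heavy chain, was at 3686 in wildtype and 21.5 in +EMD progenitors, a log2 ratio of -7.36. Mybpc1, slow myosin-binding protein C, was at 6363 in wildtype and 931 in +EMD (log2 ratio -2.77). Mylk2, the skeletal myosin light chain kinase, was at 164 in wildtype and 35.8 in +EMD, and Myl2, the slow regulatory light chain, at 175 in wildtype and 73.2 in +EMD. Myh3, the embryonic heavy chain and one of the most abundant transcripts of these cells, was at 252447 in wildtype and 115724 in +EMD (log2 ratio -1.13). The perinatal Myh8 was at 61335 in wildtype and 29813 in +EMD.

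Other myosins went the opposite way. Myh7, the slow and cardiac beta heavy chain, was higher at 7449.9 in wildtype and 18275 in +EMD (log2 ratio 1.29), and Mybpc2, the fast myosin-binding protein C, was higher at 38.9 in wildtype and 131 in +EMD. Myh1, the adult IIx chain, was at 20960.1 in wildtype and 32741 in +EMD (log2 ratio 0.64). Divided by transcript length, Myh3 made up 73.1% of the 6 skeletal heavy chains in wildtype and 59.0% in +EMD progenitors. On the same scale per kilobase, Myh1 made up 6.02% and 16.6%, Myh7 2.16% and 9.33%, Myh8 17.4% and 14.9%, and Myh2 1.06% and 0.0109%. Ttn, the giant titin, had a log2 ratio of -0.51.

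In the thin filament and troponin list 2 of 16 were lower (12.5%) and 1 higher (6.25%), beside 7.68% and 10.7% of all genes. The median log2 ratio was -0.67. Tmod1, which caps the pointed ends of actin, was at 6987 in wildtype and 1415 in +EMD (log2 ratio -2.30), and Neb, nebulin, at 49798 in wildtype and 23709 in +EMD (log2 ratio -1.07). Actc1, the cardiac actin of immature muscle, was higher at 91767 in wildtype and 204218 in +EMD (log2 ratio 1.15). Acta1, the adult skeletal actin, was at 253216 in wildtype and 184450.0 in +EMD (log2 ratio -0.46). Of the troponins and tropomyosins none passed 2-fold, with Tnnt2, the embryonic troponin T, closest to it at 48040.4 in wildtype and 24099 in +EMD.

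Of 24 Z-disc and costamere genes 7 were lower (29.2%) and 0 higher, beside 7.68% and 10.7% of all genes. Their median log2 ratio was -0.41. Dmd, dystrophin, which links the cytoskeleton to the membrane, had low levels of 56.8 in wildtype and 3.92 in +EMD (log2 ratio -3.55). Cav3, the muscle caveolin, was at 5906 in wildtype and 814 in +EMD (log2 ratio -2.86), and Tcap, telethonin, which anchors titin, at 1404 in wildtype and 241 in +EMD (log2 ratio -2.54). Actn2, the alpha-actinin of the Z-disc, was at 32989.7 in wildtype and 9828 in +EMD (log2 ratio -1.75), while its fast relative Actn3 had a log2 ratio of 0.10. Xirp2, which binds actin at junctions, was at 109.7 in wildtype and 37 in +EMD. Des, desmin, and Flnc, filamin C, had log2 ratios of -0.39 and -0.29.

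Of 18 excitation-contraction coupling genes 4 were lower and 1 higher, where 7.68% of all genes were lower. Ryr3, a ryanodine receptor of developing muscle, was at 154 in wildtype and 19.9 in +EMD, Casq1, the fast calsequestrin, at 1754 in wildtype and 317 in +EMD, and Hrc, a calcium-binding protein of the sarcoplasmic reticulum, at 10415 in wildtype and 4369.6 in +EMD. Casq2, the slow calsequestrin, had a log2 ratio of -0.37, and Atp2a1, the fast calcium pump, of -0.30. In the acetylcholine receptor and synapse list 1 of 10 was lower, a share near the 7.68% of all genes. It was Colq, the collagen tail of acetylcholinesterase, at 313 in wildtype and 122 in +EMD. Chrna1, a receptor subunit, had a log2 ratio of -0.19, and the fetal subunit Chrng of -0.66.

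Of 20 muscle metabolism genes 5 were lower (25%) and 1 higher (5%), beside 7.68% and 10.7% of all genes. Cox6a2 and Cox8b, muscle isoforms of cytochrome c oxidase subunits, were at 2368 in wildtype and 278 in +EMD for Cox6a2 (log2 ratio -3.08) and 506 in wildtype and 201 in +EMD for Cox8b (log2 ratio -1.33). Mb, myoglobin, was at 7277 in wildtype and 2258 in +EMD (log2 ratio -1.69), and Aldoa, aldolase A, at 70957 in wildtype and 34246 in +EMD. Gapdh, of glycolysis, was higher at 2327 in wildtype and 7315 in +EMD, and it has a near-identical stretch in another transcript, so its reads may have been split. Ldha, lactate dehydrogenase A, had a log2 ratio of -0.38.

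**Figure D3:**
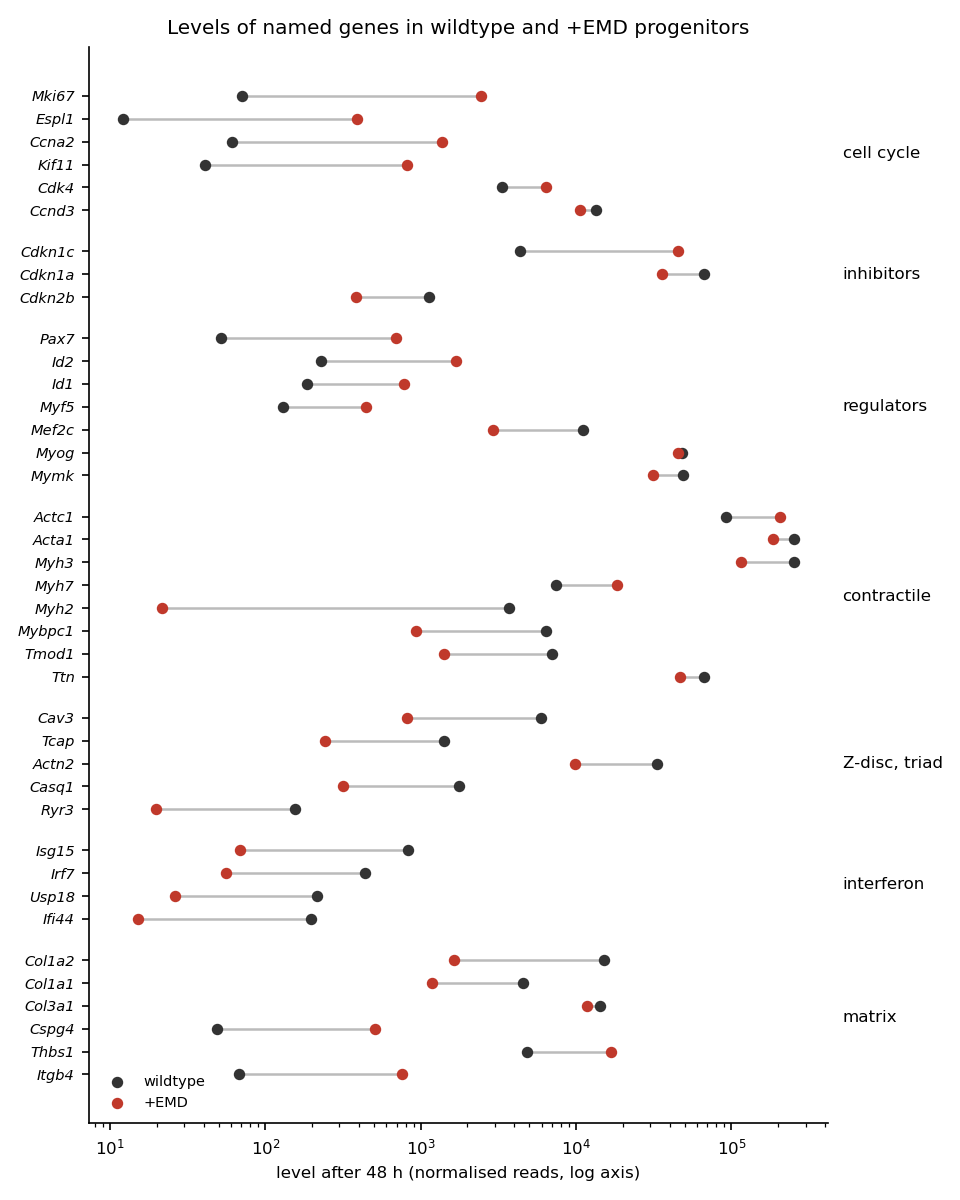
Levels of named genes after 48 h in wildtype (black) and +EMD progenitors (red), in normalised reads on a log axis, with 1 fitted value per group and no error bars because the table gives none. Mki67, Espl1, Ccna2 and Kif11 are shifted to the right in +EMD, Myog barely differs, and Myh2, Cav3, Isg15 and Col1a2 are shifted to the left.

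Interferon response genes were lower as a group. Of 31 members 21 were lower and 0 higher, where 7.68% of all genes were lower, and 28 had a ratio below 0. The median log2 ratio was -1.28. Isg15, the ubiquitin-like modifier induced by interferon, was at 827 in wildtype and 68.7 in +EMD (log2 ratio -3.57). Ifi44 was at 196 in wildtype and 15.1 in +EMD, Usp18, which removes Isg15 from proteins, at 215 in wildtype and 26.2 in +EMD, and Irf7, which amplifies the type I response, at 438 in wildtype and 55.5 in +EMD. Igtp and Iigp1, GTPases induced by γ-interferon, were at 5665 in wildtype and 1868 in +EMD for Igtp and 7558 in wildtype and 3631 in +EMD for Iigp1. Stat2, a factor of the type I response, was lower at a log2 ratio of -1.28. Gbp4 (0.99), Irf8 (0.89) and Socs1 (0.54) were the members with log2 ratios above 0. The promoter of Isg15 (chr4:156200819-156201068, minus strand, GRCm38.p6) holds the letters of the element known to bind the interferon-activated factors, with capitals for GAAA followed by any 2 bases and GAAA again, on either strand, where overlapping matches run together.
Isg15: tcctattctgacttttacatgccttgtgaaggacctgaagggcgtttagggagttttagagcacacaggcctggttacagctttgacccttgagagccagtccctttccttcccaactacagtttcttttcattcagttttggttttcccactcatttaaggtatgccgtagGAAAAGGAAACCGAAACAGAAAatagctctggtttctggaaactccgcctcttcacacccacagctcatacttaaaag
It held 3 overlapping matches, the nearest beginning 66 bases before the start. Ifi44 held none in its window. Of 26 interferon response genes with a listed start, 15 (57.7%) held such a match, against 3.16% of the 10041 genes.

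Class I and class II genes, which γ-interferon also induces, did not share the direction. Of 21 antigen presentation genes 1 was higher and 1 lower, with a median log2 ratio of -0.09. Both shares were 4.76%, beside 10.7% and 7.68% of all genes. H2-K1, a classical class I heavy chain, was at 20594 in wildtype and 10198 in +EMD (log2 ratio -1.01, at the threshold), and B2m, its light chain, at 33338 in wildtype and 39939 in +EMD. H2-Eb1, a class II chain, was at 134 in wildtype and 287 in +EMD. H2-D1 had a log2 ratio of -0.63.

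Among matrix genes, the collagens past 2-fold were all lower, while laminin and matricellular genes went both ways. Of 17 collagens 4 were lower (23.5%) and 0 higher, beside 7.68% and 10.7% of all genes. Col1a2, a chain of type I collagen, was at 15173 in wildtype and 1633 in +EMD (log2 ratio -3.21) and its partner Col1a1 at 4550.2 in wildtype and 1178 in +EMD (log2 ratio -1.95). Col4a5, of basement membranes, was at 452 in wildtype and 43.2 in +EMD, and Col8a1 at 1574 in wildtype and 259 in +EMD. Col3a1 had a log2 ratio of -0.29 and Col5a2 of -0.74.

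Of 16 laminin and basement membrane genes 2 were higher (12.5%) and 3 lower (18.8%), beside 10.7% and 7.68% of all genes. Lama2, the laminin chain lost in a congenital muscular dystrophy, was at 3603 in wildtype and 1575 in +EMD, and Lamb2, of the synaptic basal lamina, at 4464 in wildtype and 2138 in +EMD. Lamb3, an epithelial laminin chain, was higher at 48.8 in wildtype and 221 in +EMD, as was Fbln1, fibulin 1, at 186 in wildtype and 699.9 in +EMD. Hspg2, perlecan, had a log2 ratio of -0.40. Of 32 matricellular, proteoglycan and protease genes 6 were higher and 6 lower, which is 18.8% each, beside 10.7% and 7.68% of all genes. Cspg4, the proteoglycan NG2, was at 48.5 in wildtype and 506 in +EMD (log2 ratio 3.36), Thbs1, thrombospondin 1, at 4862 in wildtype and 16756 in +EMD, and the syndecans Sdc4 at 787 in wildtype and 2181 in +EMD and Sdc3 at 742 in wildtype and 1921 in +EMD. Gpc4, a glypican on chromosome X, was at 1347 in wildtype and 4.76 in +EMD, the largest difference of that list. Postn, periostin, was at 614 in wildtype and 137 in +EMD, and Thbs2 at 1147 in wildtype and 491 in +EMD.

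Of 16 integrins 4 were higher (25%) and 1 lower (6.25%), beside 10.7% and 7.68% of all genes. Itgb4, which pairs with alpha 6 in hemidesmosomes, was at 67.6 in wildtype and 753 in +EMD (log2 ratio 3.46), and Itga3, a laminin receptor subunit, at 688 in wildtype and 2049 in +EMD. Itga6 had a log2 ratio of 0.48. None of the 23 Hippo pathway genes and Yap targets passed 2-fold in either direction, with a median log2 ratio of 0.12. Yap1 had a log2 ratio of -0.01, Tead1 of -0.02 and the target Ankrd1 of 0.31.

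Nuclear envelope genes other than Emd were mixed, with 3 of 20 higher and 3 lower, Emd among the latter. Both shares were 15%, beside 10.7% and 7.68% of all genes. Lmnb1, lamin B1, whose level follows proliferation in many cells, was at 274 in wildtype and 1549.8 in +EMD (log2 ratio 2.50), and Syne2, nesprin 2, at 56.3 in wildtype and 364 in +EMD. Nup210, a pore protein that increases in muscle differentiation, was at 297 in wildtype and 50.7 in +EMD (log2 ratio -2.53), and Plpp7, a muscle envelope protein, at 1577 in wildtype and 562 in +EMD. Lmna, which encodes lamins A and C, had a log2 ratio of -0.52. Emerin binds the deacetylase Hdac3. In the HDAC and NCoR list Hdac3 had a log2 ratio of 0.12 and Ncor1 of -0.04, and 1 of 20 members passed 2-fold, Ezh2, the H3K27 methyltransferase, at 438 in wildtype and 1149 in +EMD.

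Of 19 IGF axis and imprinted genes 7 were higher and 3 lower, which is 36.8% and 15.8%, beside 10.7% and 7.68% of all genes. Mest was at 2191 in wildtype and 20745 in +EMD (log2 ratio 3.24), Plagl1, an imprinted zinc finger factor, at 571 in wildtype and 4819 in +EMD (log2 ratio 3.08), and Igf1 at 352 in wildtype and 1505 in +EMD. Igfbp7 and Ndn, necdin, were lower, Igfbp7 at 624 in wildtype and 60.7 in +EMD and Ndn at 343 in wildtype and 33.8 in +EMD. Igf2, the main IGF of differentiating myoblasts, was at 113107 in wildtype and 81272 in +EMD (log2 ratio -0.48).

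Of 28 TGF-beta and BMP genes 4 were higher and 3 lower, which is 14.3% and 10.7% and close to the 10.7% and 7.68% of all genes. Mstn, myostatin, the brake on muscle growth, was at 253 in wildtype and 953 in +EMD (log2 ratio 1.91), and its receptor Acvr2b also higher, by a log2 ratio of 2.65. Fst, follistatin, which binds myostatin, was lower at 5316 in wildtype and 2059.5 in +EMD (log2 ratio -1.37), and so was the BMP antagonist Nog at 495 in wildtype and 154 in +EMD. Grem1, also a BMP antagonist, was higher at 42.9 in wildtype and 226 in +EMD. Of 18 Wnt genes 4 were higher (22.2%) and 6 lower (33.3%). Wnt10b was at 13.3 in wildtype and 154 in +EMD and Wnt10a at 543 in wildtype and 27.3 in +EMD, opposite in direction, and Axin2, a general Wnt target, was at 286 in wildtype and 49.6 in +EMD. Sfrp2, a secreted Wnt binder, was at 277 in wildtype and 5.46 in +EMD. Of 15 Notch genes 3 were higher, which is 20% beside 10.7% of all genes. They were Rbpj, just past the threshold at a log2 ratio of 1.03, and the low-level Hey2 and Lfng. Notch1 had a log2 ratio of 0.19.

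In the NRF2 list 2 of 16 were higher, which is 12.5% and near the 10.7% of all genes. They were Gsr, glutathione reductase, at 226 in wildtype and 1113 in +EMD and Nqo1 at 71.7 in wildtype and 306 in +EMD. Both lie on chromosome 8. Without chromosomes 8 and 16, the median of the list was 0.13 in place of 0.40. In the ERK response list 3 of 20 were higher and 5 lower, which is 15% and 25%, beside 10.7% and 7.68% of all genes. The immediate early factors Egr1 (5041 in wildtype and 1872 in +EMD) and Fos (246 in wildtype and 104 in +EMD) were lower, while the ERK phosphatase Dusp4 (96.8 in wildtype and 321 in +EMD) and the inhibitor Spry4 (181 in wildtype and 446 in +EMD) were higher. In the ATF4 list 1 of 18 was higher (5.56%) and 2 were lower (11.1%). Fgf21, a stress hormone of muscle, was lower at 1350.4 in wildtype and 502 in +EMD. The sterol list had 1 of 20 (5%) in each direction. Elovl6 was at 215 in wildtype and 557 in +EMD and Scd1 at 6899 in wildtype and 3225 in +EMD. Of 14 cytokines 2 were higher (14.3%) and 1 lower (7.14%), and of 15 hypoxia genes 2 were higher and 2 lower (13.3% each).

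The genes with the largest log2 ratios were mostly outside these lists. Ikzf1, Ikaros, a lymphoid transcription factor, was at 1.3 in wildtype and 1082 in +EMD progenitors, and Lbx1, a homeobox factor of migrating muscle precursors, at 3.4 in wildtype and 552 in +EMD. Folr1, a folate receptor, was at 5.07 in wildtype and 463 in +EMD, Grik3, a kainate receptor subunit, at 3.75 in wildtype and 228 in +EMD, and Tbc1d9 at 5.07 in wildtype and 308 in +EMD. Eif2s3y, a translation factor on chromosome Y, was at 21.7 in wildtype and 1219 in +EMD, while the other Y-linked genes Ddx3y, Uty and Kdm5d had log2 ratios of -0.37, -0.44 and 0.21. Rpl26 (61.1 in wildtype and 6612 in +EMD), Kpna2 (40.5 in wildtype and 2244 in +EMD), Zfp729b (1.22 in wildtype and 100.0 in +EMD) and Ifi211 (8.58 in wildtype and 692 in +EMD) each have a near-identical stretch in another gene, so their levels are uncertain. The same holds for Tbc1d9. Such stretches were found for 36 of the 194 named genes with a transcript, among them Gapdh, Ccna2, Cdk4, Myh7, Tmod1, Ryr3, Mest, Igf2, Rbpj, Loxl2 and Elovl6. Without these genes 110 list genes were higher and 87 lower.

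At the other end, Steap1, a metalloreductase, was the most abundant, at 23583 in wildtype and 200.5 in +EMD (log2 ratio -6.87). Its relatives Steap2 and Steap3 had log2 ratios of -0.35 and -0.15. Tspan7, a tetraspanin on chromosome X, was at 1197 in wildtype and 10.2 in +EMD. Ifi202b, of the Ifi200 cluster on chromosome 1, was at 755 in wildtype and 1.59 in +EMD, and Gm8909 at 324 in wildtype and 1.12 in +EMD. Gm15501 (4733 in wildtype and 15.3 in +EMD) and LOC547349 (631 in wildtype and 1.21 in +EMD) had no transcript to search for copies. Eno1b, an enolase, was at 3375 in wildtype and 13.9 in +EMD, and Eno1, its near-identical relative, had a log2 ratio of -0.10. Among genes picked after their values were seen, other members of the Ifi200 cluster went both ways, with Ifi203 at 612 in wildtype and 25.3 in +EMD, Mndal at 5.28 in wildtype and 84.6 in +EMD and Ifi204 at 1528 in wildtype and 809.6 in +EMD. Hoxb3 (79.8 in wildtype and 0.934 in +EMD) and Hoxb4 (91.7 in wildtype and 0.936 in +EMD) had levels near 1 in +EMD progenitors.

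Log2 ratios also differed by chromosome. The median over the 688 genes of chromosome 8 was 0.47 and over the 407 genes of chromosome 16 was 0.51, which are 1.39-fold and 1.42-fold, and 84.6% and 85.3% of their genes had a ratio above 0. The medians of the other autosomes were between -0.21 (chromosome 3) and 0.06 (chromosome 2), and that of chromosome X was -0.10. The shift ran along the whole length, since 4 equal consecutive blocks of the genes of chromosome 8 had medians of 0.50, 0.43, 0.44 and 0.50, and blocks of chromosome 16 had 0.49, 0.44, 0.47 and 0.57. Of the genes on chromosome 8, 15.3% were higher and 2.47% lower, and on chromosome 16, 19.9% were higher and 3.19% lower. In +EMD progenitors the medians of chromosomes 8 and 16 were 0.53 and 0.51 at 0 h and 0.48 and 0.44 at 24 h. In EMD-/y progenitors at 48 h they were 0.02 and 0.06.

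Chromosome X held 10 genes with a log2 ratio below -4, Emd, Gpc4 and Tspan7 among them. Without the genes of chromosomes 8 and 16, 1241 genes were higher and 996 lower. Of the genes on the lists, 105 were then higher and 88 lower, against 118 and 94 with all chromosomes. The part of the chromosomes in the difference of any single gene was not tested.

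**Figure D4:**
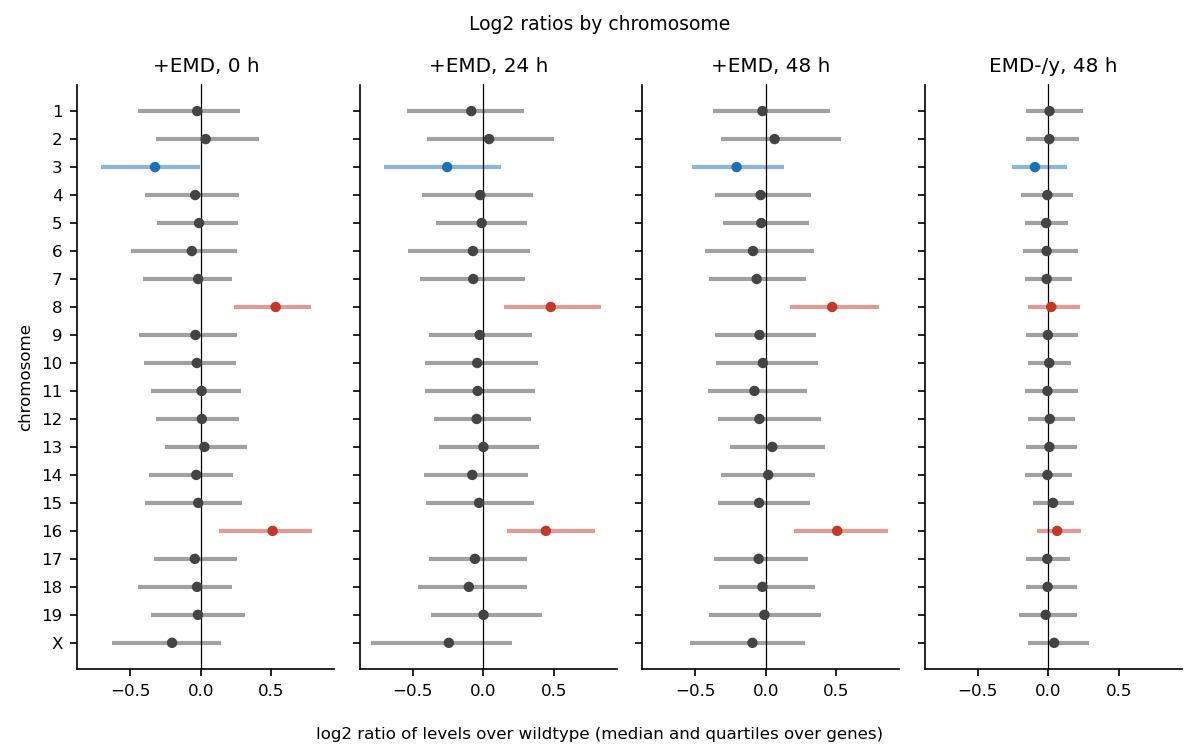
Median (point) and quartiles (bar) of the log2 ratio over wildtype for the genes of each chromosome, for +EMD at 0, 24 and 48 h and for EMD-/y at 48 h. Chromosomes 8 and 16 (red) stand near 0.5 in the 3 +EMD comparisons and near 0 in EMD-/y, and chromosome 3 (blue) stands below 0.

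The direction of the lists was set against the earlier days of the same lines, where wildtype and +EMD progenitors were compared in their own libraries. The cell cycle median was -0.03 at 0 h, 0.72 at 24 h and 3.14 at 48 h, and that of DNA replication 0.30, 1.26 and 2.35. At 0 h 0 cell cycle genes were higher and 1 lower, where 6.17% of all genes were higher and 10.9% lower, or 17% in either direction. At 24 h 9 were higher and 2 lower, where 8.93% and 10.7% were, or 19.6% in either direction. From 24 to 48 h 27 of 31 cell cycle genes went down at least 2-fold in wildtype, with a median log2 ratio of -4.28, and 25 in +EMD progenitors, with -1.74. Of all genes 11.9% went down and 8.01% up in wildtype (19.9% in either direction), and 9.53% down and 11% up in +EMD progenitors (20.5% in either direction). Between 24 and 48 h Mki67 went from 3977 to 74.6 in wildtype and from 9765 to 2718 in +EMD progenitors, each within its own table. Both lines had less Mki67 at 48 h than at 24 h, by log2 ratios of -5.72 and -1.84. Cdkn1c and Pax7 were higher in +EMD on each day, with log2 ratios of 4.04, 2.63 and 3.38 for Cdkn1c and 2.49, 3.77 and 3.73 for Pax7.

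The muscle lists were farthest from wildtype at 24 h. Of the thick filament genes 8 of 17 were lower at 0 h, 15 of 18 at 24 h and 8 of 19 at 48 h. From 24 to 48 h the median of that list went up by a log2 ratio of 2.03 in wildtype and 3.19 in +EMD progenitors, and 18 of 19 genes were past 2-fold in each line. The thick filament median was -0.99, -1.80 and -0.93 over the 3 days, the thin filament median -0.62, -1.40 and -0.67, and the metabolism median -0.44, -1.38 and -0.70. Myh3 went from 12114 at 24 h to 128188 at 48 h in +EMD and from 64098 to 261928 in wildtype progenitors. Myh7, higher in +EMD at 48 h, had a log2 ratio of -0.99 at 0 h and was also below wildtype at 24 h. Myh2 was low throughout, with -4.61, -7.46 and -7.36, and the interferon median moved little, with -1.37, -1.14 and -1.28.

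**Figure D5:**
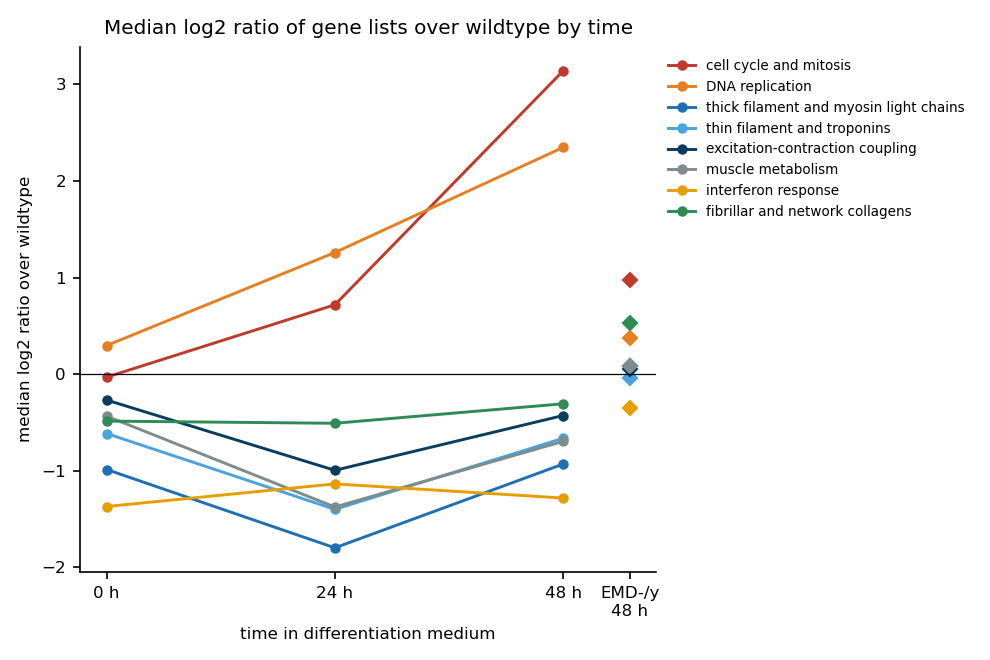
Median log2 ratio over wildtype of 8 gene lists, for +EMD at 0, 24 and 48 h (circles joined by lines) and for EMD-/y at 48 h (diamonds). The cell cycle and DNA replication medians climb to 3.14 and 2.35 at 48 h, the sarcomere medians are lowest at 24 h, and the interferon median stays between -1.37 and -1.14.

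EMD-/y progenitors at 48 h were compared with the same wildtype libraries, so values of both comparisons are only set side by side. Of all genes 4.77% were higher and 2.86% lower in EMD-/y progenitors, or 7.63% in either direction, against 18.4% in +EMD progenitors. The cell cycle median was 0.98 in EMD-/y and 3.14 in +EMD progenitors, the interferon median -0.35 and -1.28, and the thick filament median 0.09 and -0.93. For other lists the median lay farther from 0 in EMD-/y progenitors, while the counts of genes past 2-fold did not all follow. The IGF and imprinted gene median was 1.01 in EMD-/y and 0.59 in +EMD. The matricellular median was 0.56 and 0.14, and the collagen median 0.53 and -0.31. Past 2-fold, the matricellular list had 7 higher and 0 lower in EMD-/y and 6 higher and 6 lower in +EMD. The IGF list had 10 higher and 0 lower in EMD-/y and 7 higher and 3 lower in +EMD. Of the collagens 5 were higher and 0 lower in EMD-/y, and 0 higher and 4 lower in +EMD. Ikzf1 had a level of 49.7, Lbx1 of 277, Cdkn1c of 30397 and Pax7 of 317 in EMD-/y progenitors. Steap1 was at 282 and Myh2 at 259. Several other genes far from wildtype in +EMD were on the same side in EMD-/y progenitors. Ifi202b was at 2.83, Gm8909 at 2.11, LOC547349 at 2.30, Eno1b at 12.3, Ifi203 at 103, Hoxb3 at 10.2 and Hoxb4 at 11.8. Ifi211 was at 453 and Mndal at 124. Gpc4 (1415), Tspan7 (827), Col1a2 (20261), Cav3 (5488) and Mef2c (12583) had levels within 2-fold of wildtype in EMD-/y progenitors and were lower in +EMD progenitors. The difference between EMD-/y and +EMD progenitors was not tested.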

How the data were processed

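RNA of 54 samples, 18 groups of 3 labelled replicates from 6 lines, was sequenced as poly-A libraries, and the comparison described rests on 6 of them. Reads were filtered with SOAPnuke, mapped to mm10 with HISAT2 and compared with DESeq2 by the authors' sequencing provider (versions not given in the sources used here). Each deposited table pairs 2 groups and gives, per gene, a length and 1 signal value per group on a normalised read scale. The authors' signal values were checked in the lowest genes: the mean of both columns was a whole number of reads divided by library size factors for 2094 of 2094 such genes (tolerance 1e-09), whereas the ratio of the columns was shrunk, so the columns are fitted group levels. The tables also hold the authors' fold changes, p-values and direction calls, which were not used. There were 0 columns of per-sample values left unused.

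Without values per library no spread, test or interval between replicates could be computed, and the size factors gave only a rough depth. Identifiers were matched to symbols by RefSeq gene ID (GRCm38.p6), for 16053 of the 17627 listed, beside 1550 predicted genes. Log2 ratios used a pseudocount of 1, calls a fold of 2 and a level of at least 10. Named were Emd, in each of 38 lists up to 4 genes past 2-fold in each direction with a level of at least 100 and the 2 genes of highest level, and over all genes the 10 highest and 10 lowest ratios. Other genes named beside them were chosen after their values were seen. The members, lists and motifs were chosen with earlier results of these data known. Near-identical transcripts (at least 200 bases at 97% identity) were found with minimap2 2.31-r1302, for 36 of the 194 named genes with a transcript. Promoters are from RefSeq. Alternatives were the pseudocount, filter, fold, scaling and predicted genes. Added after seeing the data were ratios through the 24 h tables, leaving out chromosomes 8 and 16, and leaving out named genes with near-identical stretches. Scripts ran in Python 3.11.15 with numpy 2.4.6, pandas 2.3.3 and matplotlib 3.10.9 and were tested on simulated data.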

Additional observations from a re-analysis of the deposited data

How the results depend on the processing

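With a level of at least 100 in place of 10, 843 genes were higher and 584 lower in +EMD progenitors, against 1427 and 1026. With a fold of 1.5 the counts were 2592 and 1998, and with a fold of 4 they were 481 and 405; each follows from the threshold itself. The counts stayed within 1.5 times the main ones with pseudocounts of 0.1 (1459 and 1044) and 10 (1140 and 835), with no filter (1677 and 1209), with both columns scaled to the same sum (1507 and 970), with the median of genes at a level of at least 100 set to 0 (1461 and 999), without predicted genes (1290 and 861), through the 24 h tables (1452 and 983) and without chromosomes 8 and 16 (1241 and 996). None of the 135 named genes past 2-fold changed sign in these settings. Medians near 0 changed sign for cytokines (0.25) and adipocyte markers (-0.67) at a level of at least 100. They did so for hypoxia genes at that level (0.16) and with both columns scaled to the same sum (0.02). The median of TGF-beta and BMP genes changed sign without chromosomes 8 and 16 (-0.02). That of ERK response genes did so without the named genes that have near-identical stretches (-0.005). List genes that were not named were not searched for such stretches. H2-K1, H2-Eb1, Iigp1, Loxl2 and Tcf7l2 came under 2-fold in at least 1 of these settings. The DNA replication median was 2.08 without chromosomes 8 and 16, and the interferon median was -1.55 at a level of at least 100. No paired analysis was possible because the columns hold 1 fitted level per group without replicate numbers. For the same reason the planned limma fit on reads per library, the removal of single libraries and the replicate block were not run. Depth limits genes at a level near 10, and a level near 1 cannot be told from no reads.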

Other observations

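CAGCTG, an E-box of the kind bound by MyoD, was found on either strand in the 250 bases before the start of 5 of 9 excitation-contraction coupling genes (55.6%), 6 of 17 thick filament genes (35.3%) and 4 of 16 Z-disc genes (25%), against 14.8% of 10041 genes. The shares were 23.1% of interferon response, 13% of cell cycle and 0% of DNA replication genes. It was also found for 18% of the genes that were higher and 18.2% of those that were lower in +EMD progenitors. A match describes letters only.

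Among class I genes of the H2-T region, H2-T10 was at 1612 in wildtype and 112 in +EMD, whereas H2-T22 had a log2 ratio of -0.09. Dmrt3, a transcription factor of spinal neurons and somites, was at 0.924 in wildtype and 62.6 in +EMD, with a wildtype level that cannot be told from no reads. Hoxb2 to Hoxb8 all had lower levels in +EMD progenitors, with Hoxb2 at 38.2 in wildtype and 1.17 in +EMD and Hoxb7 at 16.5 in wildtype and 0.81 in +EMD, and 4 of these 7 reached a level of 10 in wildtype. These genes were picked after their values were seen.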
